A study of Pomacea canaliculata with 12 samples.

Results

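The apple snail Pomacea canaliculata carries cephalic and oral tentacles on its head. Of the 21131 genes in the deposited table, 131 had transcripts common to both tentacle types, with means at least 8-fold lower in retina and eye stalk. A gene was a member with a CPM of at least 1 (the usual counts-per-million share of its library's counts, adjusted with edgeR TMM factors over all genes) in each of the 6 tentacle libraries, with cephalic and oral means within 2-fold of each other, and with each tentacle mean at least 8 times both the retina mean and the eye stalk mean. The members were thus chosen by their mean CPM in all 4 tissues, and their tentacle levels against retina and eye stalk are described below without a test. In all, 13457 genes met the conditions on the tentacles alone.

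The study took poly(A) RNA with Trizol from extracted retinas and from amputated eye stalks, cephalic tentacles and oral tentacles, with 3 libraries of each tissue. The series is about regeneration of the snail's camera-type eye, and its labels give no treatment, time point, strain, sex or age for any of the 12 libraries. Separate animals or pools per library are not stated, nor is whether the eye stalk was taken with the eye, so p-values measure only the spread between these libraries. Retina replicates 1, 3 and 4 held 40794864 to 45673871 counts, and the other 9 libraries held 10804847 to 21561988, so a single retina library could detect a rarer transcript than a single library of the other tissues. Where 3 values are given for a tissue below, they are in the order of replicates 1, 2 and 3, and of 1, 3 and 4 for retina.

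Snail tentacles are mobile appendages that carry sensory neurons, ciliated and mucus-secreting epithelium, and muscle. In apple snails the long cephalic tentacles stand beside the eye stalks and the oral tentacles, or labial palps, flank the mouth, and both serve touch and chemical sense. The eye stalk shares skin, muscle and nerve with the tentacles, whereas the retina is a sheet of photoreceptors and supporting cells. The files used here name genes by LOC identifiers alone, so no member is given a function, and markers of single cell types could not be checked. In whole tissue, fewer cells of a type and less RNA per cell cannot be told apart.

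**Figure D1:**
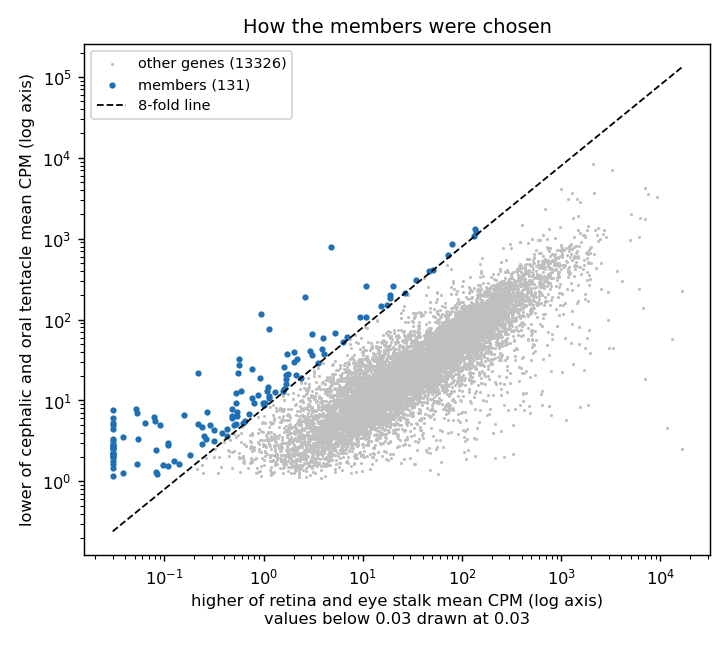
Each point is 1 of the 13457 genes that met the tentacle conditions, with the higher of its retina and eye stalk mean CPM on the horizontal axis and the lower of its cephalic and oral tentacle mean CPM on the vertical axis, both on log scales. The 131 members (blue) lie on or above the dashed 8-fold line, and 69 of them lie within a further 2-fold of it.

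The members together took 1.34 ± 0.12% of all counts in cephalic tentacle (SD, n = 3) and 1.40 ± 0.11% in oral tentacle, against 0.0969 ± 0.0416% in eye stalk and 0.0373 ± 0.0174% in retina. Single cephalic tentacle libraries held 1.37, 1.45 and 1.21%, and single oral tentacle libraries 1.42, 1.49 and 1.28%. The share was 0.0689, 0.145 and 0.0772% in eye stalk, and 0.0279, 0.0266 and 0.0574% in retina. Eye stalk replicate 2 and retina replicate 4 thus held about as large a share as the sum of the other libraries of their tissue.

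Member levels spanned a wide range. The mean over the 6 tentacle libraries ran from 1.29 to 1567 CPM with a median of 8.80 CPM, against a median of 19.9 CPM over the 16811 genes with enough counts to be tested. CPM is a share of reads and not a level per length, so this order is one of read share. There were 20 members at 100 CPM or more, 44 between 10 and 100 CPM and 67 under 10 CPM. The 6 members with the highest means took 0.603 to 0.924% of the counts of each tentacle library.

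The fold between the lower tentacle mean and the higher of the retina and eye stalk means ran from 8.01 to 251 with a median of 14.8, taking a tissue with 0 counts at 3 counts over its 3 libraries. It lay under 16 for 69 members, between 16 and 32 for 28 and at 32 or more for 34. For 26 members the tissue that set the fold had 0 counts, so the fold used its floor, at 18.5 to 251. It is a lower bound for the 12 of them with 0 counts in both tissues. The other 14 had counts in the other tissue, so their values (20.9 to 251) bound only the ratio to the tissue with 0 counts. The eye stalk mean was above the retina mean in 93 members and under it in 26, and 12 had 0 counts in both. The 20 members at 100 CPM or more were mostly close to the limit, with a median fold of 9.89 and 16 of them under 16. The 67 members under 10 CPM had a median of 26.0, and 26 of them reached 32 or more. Only 1 of the 131 members, LOC112574585, had a tentacle library that overlapped the other tissues, with 9.33 CPM in cephalic tentacle replicate 3 and 11.97 CPM in eye stalk replicate 3. Over all genes tested, 9.08% had all 6 tentacle libraries above all 6 retina and eye stalk libraries, a share that cannot be read against the members because the rule chose them for this difference.

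**Figure D2:**
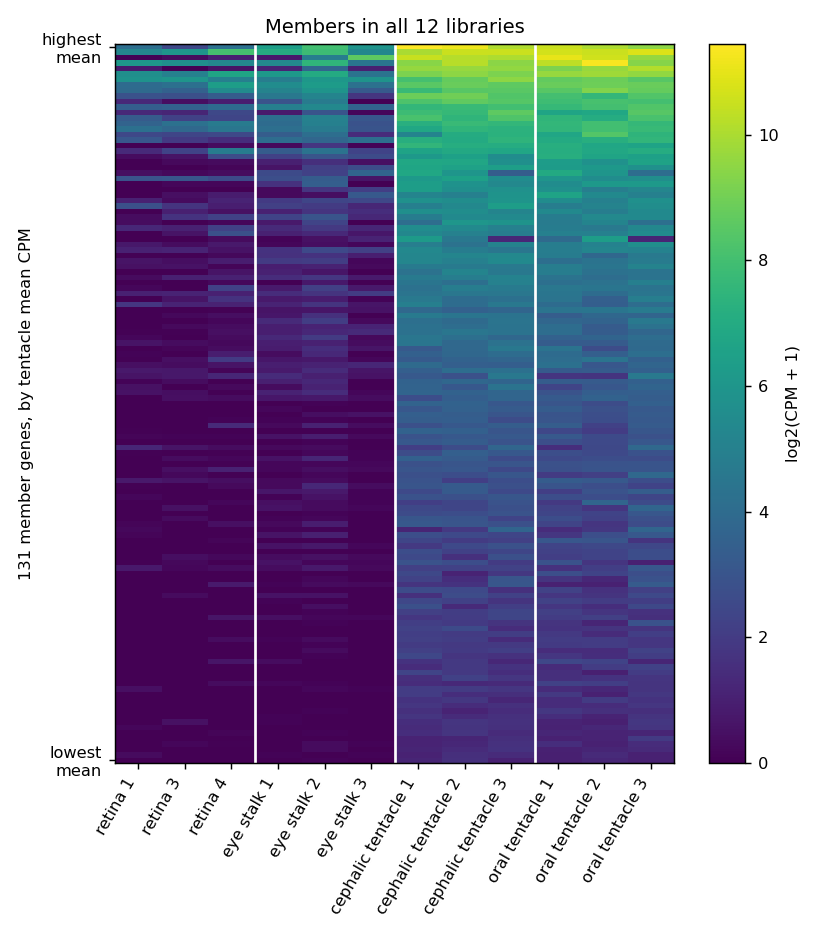
Rows are the 131 members, ordered by mean CPM over the 6 tentacle libraries, columns are the 12 libraries, and colour is log2(CPM + 1). The 6 tentacle columns on the right are brighter than the 6 retina and eye stalk columns in nearly every row, and eye stalk replicate 2 is the brightest of its tissue in 90 rows.

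The member with the largest read share, LOC112557058, had 2792, 2274 and 1088 CPM in cephalic and 1470, 1049 and 731 CPM in oral tentacle. The eye stalk libraries had 83.8, 255 and 60.4 CPM, and those of retina had 16.7, 4.54 and 17.8 CPM. Its tentacle libraries all lay above its eye stalk libraries, and these above its retina libraries, and replicate 3 was the lowest in both tentacle types. The lower tentacle mean was 8.14-fold the eye stalk mean and 83.4-fold the retina mean.

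LOC112576226 came next and differed in that retina and eye stalk held similar amounts. It had 1028, 1465 and 1468 CPM in cephalic and 1647, 1476 and 1860 CPM in oral tentacle. The eye stalk libraries had 134, 230 and 38.9 CPM and the retina libraries 37.4, 59.9 and 265 CPM. Retina replicate 4 and eye stalk replicate 2 stood above the rest of their tissues, and both remained below every tentacle library. LOC112561324 was likewise highest in those 2 libraries outside the tentacles, with 581 to 728 CPM in cephalic and 768 to 903 CPM in oral tentacle. Its eye stalk libraries had 69.0, 127 and 19.6 CPM and its retina libraries 48.7, 31.8 and 103 CPM.

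LOC112574865 was a member through the eye stalk mean of 2 low libraries and a high one. Its tentacle levels were 1431, 1158 and 1062 CPM in cephalic and 2078, 1551 and 806 CPM in oral tentacle. The eye stalk libraries had 0.772, 28.2 and 383 CPM, whereas retina had at most 1.01 CPM. The fold against eye stalk was therefore 8.85 and that against retina 2792. LOC112553285 was also uneven, with 688, 1195 and 692 CPM in cephalic and 1273, 2623 and 659 CPM in oral tentacle, where replicate 2 was the highest in both. Its eye stalk libraries had 41.3, 176 and 20.7 CPM and its retina libraries 67.8, 51.4 and 37.2 CPM.

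LOC112557533 combined a large read share with a large fold against both retina and eye stalk. It had 805, 814 and 772 CPM in cephalic and 574, 832 and 1103 CPM in oral tentacle. Eye stalk had 1.24, 12.2 and 1.04 CPM, and retina had 0.788, 0 and 0.488 CPM. The fold was 166 against eye stalk and 1872 against retina, and eye stalk replicate 2 was again the highest library outside the tentacles.

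The other 5 of the 6 members with the highest values of this fold had few tentacle reads and almost none elsewhere. For the 12 members with 0 counts in both retina and eye stalk the fold is only known to be at least 18.5 to 55.3, since the eye stalk floor lies above the level of a single count there, so their place in this order is not known. LOC112553180 had 11.4, 11.2 and 7.60 CPM in cephalic and 7.10, 5.32 and 10.2 CPM in oral tentacle. It had 0 counts in retina, at least 251-fold lower against a floor of 3 counts over the 3 libraries, and a single count, 1, in the eye stalk libraries, where the tentacle level was 278 times as high (exact Poisson bounds at 95% of 49.9 to 10974, counting error only, as for every floor and interval here). LOC112575538 and LOC112565957 likewise had 0 counts in retina and 1 in eye stalk, with tentacle means of 6.96 and 5.55 CPM and lower bounds against retina of 201-fold and 176-fold. LOC112573249 had 0 counts in retina, at least 261-fold lower, and 2 counts in eye stalk, where the ratio was 152 (interval 42.1 to 1257). LOC112568991 had 3 counts in retina and 2 in eye stalk. Its ratios were 242 (interval 83.0 to 1176) and 132 (interval 36.4 to 1087).

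Besides those 12 members, 20 had 0 in retina only, 3 had 0 in eye stalk only and 96 had counts in both. All 12 had tentacle means under 10 CPM. A count of 0 over the 3 libraries allows up to 0.0301 CPM in retina and 0.0795 CPM in eye stalk, so the depth of the eye stalk libraries sets a limit under which absence was not detectable. At most 3 counts in each of the 2 tissues were found for 29 members.

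Genes on both sides of the limit had similar values. The 3 members just inside it were LOC112556099, LOC112575640 and LOC112571448, with folds of 8.01, 8.06 and 8.08. The 3 genes just outside that met every other condition were LOC112556383, LOC112553421 and LOC112561500, with folds of 7.998, 7.96 and 7.85. LOC112561500, for example, had 310 to 352 CPM in cephalic tentacle, 347 to 424 in oral tentacle, 17.1 to 65.7 in eye stalk and 21.1 to 77.8 in retina, with its highest values outside the tentacles again in eye stalk replicate 2 and retina replicate 4. The limit cuts a continuous range.

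Each library was left out in turn, members were chosen from the other 11, and the 8-fold condition was read in the one left out. The left-out library gave only its own side of the ratio, while the other side came from the means that chose the genes. The shares over all genes that passed the tentacle conditions also count the chosen genes. These values are therefore a description and not a test of the members. Of 133 members chosen without oral tentacle replicate 1, 111 met the condition there (83.5%), the same condition being met by 1.11% of all genes that passed the tentacle conditions. Over the 6 tentacle libraries this share was 81.1 to 94.6%, against 1.18, 1.23 and 1.33% of all such genes for cephalic replicates 1, 2 and 3 and 1.11, 1.08 and 1.09% for oral replicates 1, 2 and 3. For the retina libraries it was 92.2, 97.6 and 81.3% in replicates 1, 3 and 4, against 13.0, 13.4 and 11.2%. For eye stalk it was 86.4, 55.1 and 79.0% in replicates 1, 2 and 3, against 1.55, 1.03 and 2.59%. The members were thus least sharply set off from eye stalk replicate 2, where 87 of 158 genes chosen without it met the condition.

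The lower levels outside the tentacles were unevenly spread over libraries. As a share of each member's tentacle mean, the median member reached 3.45, 6.30 and 1.20% in eye stalk replicates 1, 2 and 3 and 0, 0 and 1.05% in retina replicates 1, 3 and 4. Eye stalk replicate 2 held the highest eye stalk level for 90 of 131 members (68.7%), against 30.3% of all genes tested, while replicates 1 and 3 held it for 13 members each, against 31.5 and 37.7% of all genes tested. Among 1397 other tested genes whose tentacle libraries all lay above retina and eye stalk, it was the highest for 53.2%. Retina replicate 4 held the highest retina level for 55 members (42.0%), against 38.0% of all genes tested, but 32 members had no single highest retina library, being at 0 or tied. Among the 99 members that had one, replicate 4 was the highest in 55.6%, against 39.0% of such genes tested, and replicates 1 and 3 in 26 and 18 members. Among the 116 members with a single highest eye stalk library it was replicate 2 in 77.6%, against 30.4% of such genes tested.

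Both libraries were the highest of their tissue for 41 members (31.3%), against 12.3% of all genes tested, and for 12 of the 20 members at 100 CPM or more. These 12 include LOC112557058, LOC112576226 and LOC112561324 above, and also LOC112562754, with 46.2, 75.9 and 18.5 CPM in eye stalk and 15.0, 17.7 and 82.4 CPM in retina. LOC112561300 had 8.96, 19.5 and 3.99 CPM in eye stalk and 1.61, 3.94 and 26.7 CPM in retina, against 98.8 to 139 CPM in the tentacles. What sets these 2 libraries apart was not tested.

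**Figure D3:**
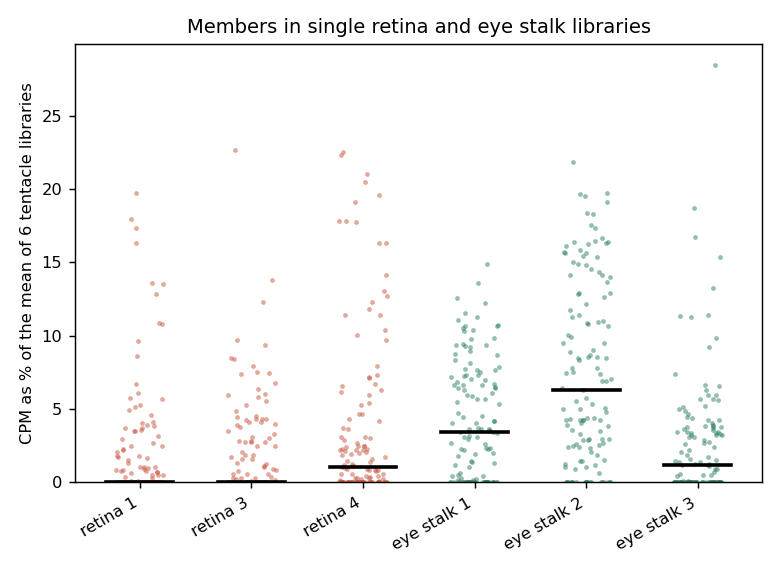
Each point is 1 member, and the vertical axis gives its CPM in a single retina (red) or eye stalk (green) library as a percentage of its mean over the 6 tentacle libraries, with a black bar at the median of the 131 members. The median was 6.30% in eye stalk replicate 2 and at most 3.45% in the other libraries.

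The rule did not use the difference between retina and eye stalk, although it set the same upper limit on the mean of each. Of the 131 members, 35 were higher in eye stalk and 1 was higher in retina (edgeR quasi-likelihood test, adjusted p under 0.05 over 16811 genes). Over all genes tested, 26.8% were higher in eye stalk and 28.1% higher in retina. The members' shares were 26.7 and 0.763%. The median log2 fold change, retina minus eye stalk, was -1.08 over members and 0.04 over all genes tested. Without eye stalk replicate 2 the members' median was 0, and without that library and retina replicate 4 it was -0.68. A member with 0 counts in both tissues takes a value of 0, so a median of 0 does not show equal levels. Without eye stalk replicate 2, 22 members were higher in eye stalk and 1 in retina, with 23.8 and 24.5% of all genes tested. All members passed the filter on low counts with the tentacle libraries included, and 49 passed it on the retina and eye stalk libraries alone. By a different measure, 49 had under 10 counts in every retina and eye stalk library. Depth thus limited what could be called among the 95 members not called, and the shares are not read against those of all genes. Conversely, LOC112573249, LOC112565149 and LOC112566177 were called on 2, 3 and 3 eye stalk counts and 0 retina counts, all as higher in eye stalk, with edgeR adjusted p = 0.047, 0.048 and 0.049. For each gene all of these counts came from a single eye stalk library, replicate 1 for LOC112573249 and replicate 2 for LOC112565149 and LOC112566177.

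Members that were higher in eye stalk had a median log2 fold change of -3.29, within a range of -8.28 to -1.02. LOC112554143 had the smallest adjusted p, with 2.08, 2.20 and 0.958 CPM in eye stalk and 0.0315, 0.0601 and 0.172 CPM in retina. The groups did not overlap, and its log2 fold change was -4.12 ± 0.54 (SE, edgeR adjusted p = 0.00015). In the tentacles it had 36.3 to 40.2 CPM in cephalic and 13.0 to 27.2 CPM in oral libraries.

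LOC112570760 had 0.541, 0.571 and 0.479 CPM in eye stalk and 2 counts in all of retina, both in replicate 4 (log2 fold change -4.28 ± 0.65, edgeR adjusted p = 0.00034). LOC112572456 had 0.541, 3.43 and 5.35 CPM in eye stalk and 4 counts in retina, and its neighbour LOC112572453 had 0.232, 2.45 and 3.35 CPM in eye stalk and 0 counts in retina (edgeR adjusted p = 0.00039 and 0.00069). For both, eye stalk replicate 3 was the highest and every tentacle library stood far above it, at 53.3 to 105 and 29.2 to 81.2 CPM. LOC112576403 and LOC112562268 also had 0 counts in retina, with eye stalk means of 0.425 ± 0.249 and 0.477 ± 0.349 CPM (SD, n = 3; edgeR adjusted p = 0.00060 and 0.0018). Each of these 6 genes stayed called under every alternative that could test it. LOC112576403, LOC112572453 and LOC112562268 did not pass the filter when the retina and eye stalk libraries were fitted alone, so that fit could not test them.

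LOC112563313 was the member higher in retina. Its retina libraries had 0.662, 0.300 and 0.718 CPM and its eye stalk libraries 0.154, 0.326 and 0.160 CPM, so the groups overlapped. Its log2 fold change was 1.45 ± 0.50 (SE, edgeR adjusted p = 0.031), and it was called in 4 of 11 alternatives (edgeR or DESeq2 adjusted p 0.010 to 0.15). With 56 retina counts and 8 eye stalk counts, it did not pass the filter when those libraries were fitted alone, so that fit could not test it. Its tentacle libraries held 18.7 to 49.2 CPM.

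The number of members higher in eye stalk rested in part on eye stalk replicate 2. Among the 35, that library was the highest of the eye stalk in 24, replicate 3 in 10 and replicate 1 in 1. Without eye stalk replicate 2 the number was 22 (16.8%, with 23.8% of all genes tested in that fit), and without both that library and retina replicate 4 it was 30 (22.9%, with 25.5% of all genes tested). When the retina and eye stalk libraries were fitted alone, 49 members passed the filter and 11 of them (22.4%) were higher in eye stalk, with 24.3% of all genes tested. With the replicate block it was 31, and no member was then higher in retina.

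**Figure D4:**
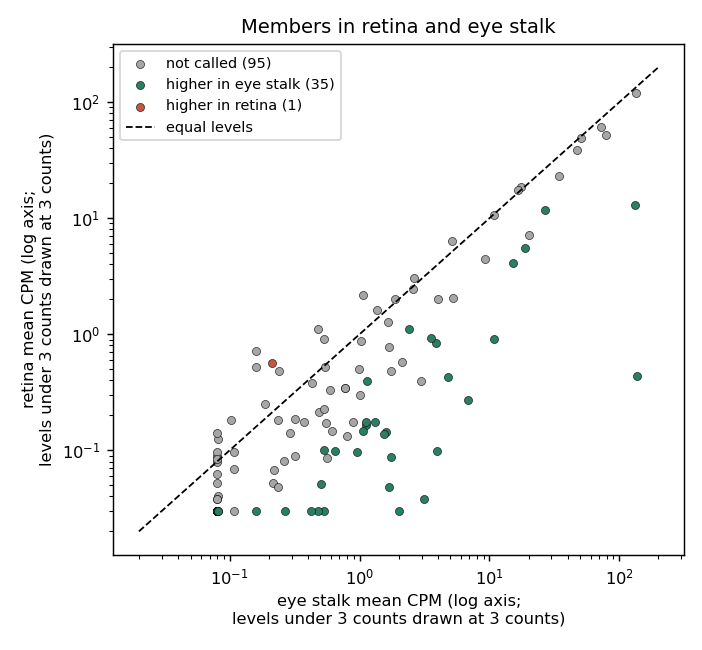
Mean CPM of each of the 131 members in eye stalk (horizontal) and retina (vertical), both on log axes, with levels under 3 counts over a tissue's libraries drawn at 3 counts. The 35 members called higher in eye stalk (green) lie under the dashed line of equal levels, the 1 called higher in retina (red) lies above it, and 95 (grey) were not called. Because 3 counts are 0.0795 CPM in eye stalk and 0.0301 CPM in retina, the 12 members with 0 counts in both are also drawn under the line. Their place there shows no difference.

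Between the tentacle types the rule allows at most a 2-fold difference, and the cephalic mean was 0.519 to 1.93 times the oral mean. It was above the oral mean in 83 members and under it in 48, and over all genes tested 53.6% had a higher cephalic mean. Their coefficient of variation over the 6 tentacle libraries had a median of 0.296, against 0.233 over all genes tested, at lower read counts. It ran from 0.0665 to 1.11.

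Part of that variation was shared by libraries with the same replicate number. LOC112554100, the most variable member, had 74.9, 22.9 and 1.45 CPM in cephalic and 14.5, 81.6 and 1.24 CPM in oral tentacle, so that replicate 3 was the lowest in both types. LOC112563002 had the opposite order, with 1.28, 2.74 and 11.95 CPM in cephalic and 1.70, 2.62 and 12.1 CPM in oral tentacle. LOC112564749 had 8.24, 6.07 and 22.7 CPM in cephalic and 2.37, 2.28 and 23.6 CPM in oral tentacle. LOC112574450 had 2.32, 2.22 and 7.32 CPM and 1.08, 1.10 and 8.85 CPM in the same order. In these 3 genes both replicate 3 libraries lay above the other 4. The 2-fold limit between tentacle means can leave out genes with an extreme library in a single tentacle type. High variation among members therefore favours extremes in both types, though not in the same replicate number.

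Across the 131 members, deviations of log2 CPM from the tissue mean correlated between same-numbered cephalic and oral libraries with r = 0.40, 0.43 and 0.60 for replicates 1, 2 and 3 (Spearman's rho 0.33, 0.39 and 0.24). Over all genes tested r was 0.38, 0.29 and 0.53. These correlations are across genes, which are not independent replicates. Between libraries of different numbers r was -0.46 to 0.19 across members. The deviations of a gene sum to 0 over the libraries of a tissue. Positive values for equal numbers therefore push those for different numbers down, and the latter are no separate contrast. The same replicate number was highest in both tentacle types for 58 members (44.3%), near the 46.7% of all genes tested, and it was number 3 in 30 of them, number 1 in 17 and number 2 in 11. Same-numbered tentacle libraries thus deviated together in these genes as in the rest, and what a number stands for is not stated.

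**Figure D5:**
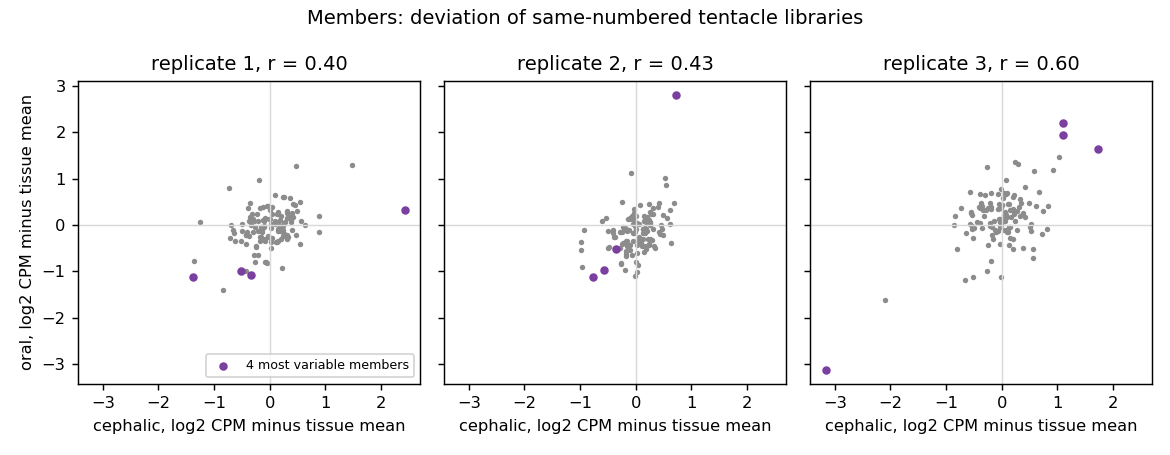
For each replicate number, points give the deviation of the 131 members from their tissue mean (log2 CPM) in the cephalic library (horizontal) and the oral library (vertical), with the 4 most variable members in purple. In the replicate 3 panel (r = 0.60) these 4 members lie far from the origin along the diagonal, 3 high and 1 low in both libraries.

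Position in the genome was not used by the rule. In the gene order of assembly ASM307304v1, where all 131 members were found, 30 members (22.9%) stood directly beside another member, and 228 of the 21000 other genes of the table (1.09%) stood beside one. With at most 5 other protein-coding genes between neighbours, 46 members fell into 21 sets, 17 of them pairs and 4 with 3 members each, and 85 members stood alone. The labels name no build, so only the order of genes was taken from this assembly. Neighbouring copies that resemble each other can share reads, which the counts alone cannot resolve, and 18 members overlap another annotated gene, so their counts are uncertain.

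LOC112572423, LOC112572424 and LOC112572425 stood side by side. Their tentacle means were 35.7, 60.7 and 304 CPM, and each was called higher in eye stalk than in retina (edgeR adjusted p = 0.041, 0.0066 and 0.021). All 3 had their highest eye stalk level in replicate 2, at 4.08, 9.79 and 25.8 CPM, and 0 counts in eye stalk replicate 3. The gene on one side of them, LOC112572650, was higher in eye stalk (1224 CPM) than in either tentacle type (863 and 812 CPM), and LOC112572073 on the other side was nearly absent from all 4 tissues.

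LOC112566755, LOC112566754 and LOC112566753 formed the other unbroken set of 3, but with different levels across libraries. LOC112566755 had 12.4 and 13.8 CPM in the cephalic and oral replicate 3 libraries and 1.80 to 5.26 CPM in the other 4. LOC112566754 and LOC112566753 had 2.35 to 4.35 and 1.68 to 3.52 CPM in the tentacles, with cephalic replicate 3 the lowest library of each. The 3 neighbours thus did not all peak in the same library.

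In a looser set the genes in between were detected in the tentacles alone. LOC112575799, LOC112575538 and LOC112575803, with tentacle means of 2.82, 6.96 and 2.17 CPM, enclose LOC112575800, LOC112575801 and LOC112575802. These 3 had 0 counts in retina and eye stalk and tentacle means of 1.94, 1.67 and 0.433 CPM. The genes between the members of another set were mixed. LOC112566551, LOC112567232 and LOC112567348 had cephalic means of 8.82, 2.80 and 7.19 CPM and oral means of 7.18, 3.33 and 5.51 CPM. Among the 5 genes between them, LOC112567201 had means of 2.09 CPM in cephalic and 1.43 CPM in oral tentacle, 0.240 CPM in eye stalk and 0 in retina, whereas LOC112566656 was highest in retina, at 156 CPM. LOC112566947 had 0.617 CPM in cephalic and 0.0776 CPM in oral tentacle, LOC112566948 had 0.0510 CPM in cephalic tentacle and 0 elsewhere, and LOC112566949 had 0 counts in every library.

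Among pairs, LOC112553285 and LOC112553284 both had a higher oral than cephalic mean, at 1518 and 858 CPM and at 206 and 107 CPM, and both peaked in oral tentacle replicate 2, at 2623 and 337 CPM. LOC112555957 and LOC112555234 had tentacle means of 34.0 and 232 CPM, and folds of 15.0 and 73.5. The second was highest in replicate 3 of both tentacle types, at 392 and 357 CPM against 102 to 226 CPM elsewhere in the tentacles.

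Genes beside members were also examined for the same pattern of tissues. Of the 166 tested non-members directly beside a member, 34 (20.5%) had all 6 tentacle libraries above all 6 retina and eye stalk libraries, against 8.38% of the 16680 tested non-members. The lower tentacle mean was at least 2-fold above both other means in 37 of them (22.3%), against 7.55% of tested non-members. These shares describe position only, since neighbours can share reads and were not sampled independently.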

How the data were processed

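The deposited table holds unnormalized read counts for 21131 genes in 12 libraries, a unit taken from its whole numbers and unequal library totals. The submitters' processing notes name STAR as the aligner. Its version, the counting tool, the strand setting and the build are not given in sources used here. CPM with TMM factors over all genes (edgeR 4.0.16, R 4.3.3) chose the members. Retina was tested against eye stalk with glmQLFit and glmQLFTest (robust) on all 12 libraries with tissue as the only term, 8 residual degrees of freedom, filterByExpr at a minimum count of 10, TMM factors after that filter, and Benjamini-Hochberg adjustment over 16811 genes. The standard error was derived from the F statistic. The test was checked on simulated data.

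Named members are the 6 with the highest tentacle mean, the 6 with the largest fold, the 3 genes on each side of the limit, up to 6 called in each direction between retina and eye stalk, the 4 most variable, and the first 6 sets of neighbours, with most members and fewest genes between. Tied sets were taken in the order of their identifiers, so the pairs named come from a larger number of equal pairs. LOC112574585, LOC112562754, LOC112561300, LOC112565149, LOC112566177 and non-members beside or between neighbours were named after their values were seen. Protein families and sequence features were not analysed here. The members, rule and lists were chosen with earlier results of these data known. Libraries of 1 tissue all differed by more than sampling noise (chi-square per degree of freedom 34.0 to 666). Alternatives were RLE scaling, no scaling, other limits, no low-count filter, DESeq2 1.42.0, a replicate block and leaving out libraries. Deviations of log2 CPM used a prior count of 2.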

Additional observations from a re-analysis of the deposited data

How the results depend on the processing

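The number of members depended on the fold limit, at 290 genes with a limit of 4 and 62 with a limit of 16, against 131 at 8. Under the other scalings, minimum CPM and between-tentacle limits it stayed within 1.5 times, and leaving out single libraries gave 120 to 158 members. Without eye stalk replicate 3, 27 of the 131 members were lost and 20 genes gained. Members higher in eye stalk than retina numbered 35, and 11 when the retina and eye stalk libraries were fitted alone. Fewer genes passed the filter in that fit, and the spread was estimated without the tentacle libraries. The SE of LOC112554143, LOC112570760 and LOC112572456 was 0.88, 1.19 and 1.46 there, against 0.54, 0.65 and 0.93 in the stated fit. Leaving out single libraries gave 22 to 45 such members and 0 to 1 higher in retina. The number higher in retina was 0 in the fit of retina and eye stalk alone, which could not test LOC112563313. It was also 0 with the replicate block and when retina replicate 4 and eye stalk replicate 2 were both left out. LOC112563313 also missed the threshold with DESeq2 (adjusted p = 0.061) and without retina replicate 1 (edgeR adjusted p = 0.072), retina replicate 4 (0.085), eye stalk replicate 1 (0.10) or eye stalk replicate 3 (0.10), so the 1 member called higher in retina with DESeq2 was another gene. The cause was not tested. DESeq2 called 45 members higher in eye stalk (34.4%, with 31.3% of all genes tested) and 1 higher in retina (with 26.6% of all genes tested). No member called in both the stated fit and an alternative changed sign. The replicate block gives equal numbers a common term in every tissue. Number 4 occurs only in retina, so the block fits retina replicate 4 by itself and that library does not inform retina against eye stalk. Retina and eye stalk share numbers 1 and 3, with r = 0.00 and -0.03 between their deviations across genes, so no pairing was shown between these tissues. With the block, 31 members were higher in eye stalk and 24 of the 36 called members stayed called. The TMM factors after the filter and the omission of 2 libraries together were chosen after seeing the data. Leaving out a library moved the share of counts held by members to 0.0730 to 0.111% in eye stalk and 0.0273 to 0.0426% in retina, lowest without eye stalk replicate 2 and retina replicate 4. Depth limits absence most in eye stalk, where 3 counts correspond to 0.0795 CPM.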
